A study of Mus musculus with 8 samples.

Results

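Genes whose names place them in germline and cancer-testis families were read out of a messenger RNA comparison of 2 mouse cell lines. The rule took every row of the deposited gene table whose name was Rhox, Xlr, Mage a, b, d, e or h, Tex, Tdrd, Sycp or Piwil followed by a number, and the single genes Dazl, Ddx4, Mael, Taf7l, Dppa3 and Stra8. It found 130 of 43346 rows: 38 Rhox, 15 Xlr, 23 Mage a and b, 5 Mage d, e and h, 29 Tex, 7 Tdrd, 4 Sycp, 3 Piwil and the 6 single genes. Of these, 86 lie on the X chromosome and 18 are named as pseudogenes. The families were selected on the difference between the lines in these same counts, so the values of the members, and how many of them were called in a fit over all genes, are given as a description that supports nothing.

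LLC1, or Lewis lung carcinoma, is a tumour line of a C57BL mouse. MLE12 was derived from a lung tumour of a transgenic mouse in which the surfactant protein C promoter drove SV40 large T antigen in lung epithelium. Both lines came from ATCC, were given no reagent and were grown to about 80% confluence, and each was sequenced in 4 libraries. The labels name no genetic change, sex or passage for either line. Each library held 46.8 to 55.3 M counts in LLC1 and 48.6 to 76.7 M in MLE12. Levels are in CPM, which are counts per 1 M on scaled library totals, and where nothing was counted the level may still be as high as 0.0693 CPM in the shallowest LLC1 library and 0.0381 CPM in the deepest MLE12 library. Of the lung epithelial markers, all 7 of the 7 tested were called higher in MLE12, where Nkx2-1 averaged 147 CPM (0.664 in LLC1). Of the 7 mesenchymal markers tested, 6 were called higher in LLC1. Over all genes tested, 40.9% were called higher in MLE12 and 40.7% in LLC1.

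Many genes of the germline are silent in body tissues and are switched on only in testis, ovary or placenta. DNA methylation of their promoters and repressor complexes that read E-box and E2F-like motifs are known to hold them silent, and tumours and cell lines can lose that silence for single families. Human genes with such expression are called cancer-testis genes, and the MAGE family was the first described. Rhox genes are X-linked homeobox genes of the reproductive tract and placenta, Xlr genes encode relatives of the synaptonemal complex protein SYCP3, and Tdrd and Piwil genes serve the piRNA pathway, which silences transposons in germ cells. Names beginning with Tex stand for testis expressed and join unrelated genes, several of them active in most tissues.

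Most members were barely detected or not detected in both lines. No read was counted in any of the 8 libraries for 56 of the 130 members, and 83 had at most 10 counts over all libraries together. Only 34 passed the filter on low counts and could be tested, and a member that was high in a single line could pass through that line alone. Mean levels were under 1 CPM in both lines for 109 members and at or above 1 CPM in both for 11. In LLC1 alone, 8 members reached 1 CPM, of which 5 were Rhox and 2 Xlr genes with Piwil4 the other. In MLE12 alone, 2 did, Mageh1 and Tex15. In bulk RNA, fewer cells that express a gene and less RNA per cell cannot be told apart.

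Among the 34 members that entered the fit, 16 were called higher in LLC1 and 11 higher in MLE12 at an adjusted p of 0.05 by edgeR's quasi-likelihood test, and 7 were not called. Over all 18546 genes tested, 81.6% were called, 40.7% being higher in LLC1 and 40.9% higher in MLE12. Against a minimum change of 2-fold, 12 members were called higher in LLC1 and 7 in MLE12, where 16.7% and 16.9% of all genes tested passed in these directions. These counts restate the difference on which the families were selected, and nothing is read from them. The median log2 fold change (LLC1 over MLE12) was 0.46 over the 34 members, also with the 5 members that had no count in MLE12 set to their lower bound, and 0.02 over all genes tested. In 21 of all 130 members, tested or not, every LLC1 library lay above every MLE12 library, and in 11 the order was the reverse. The shares over all genes tested were 37.7% and 38.7%. The 2 are not on the same basis, as those 32 members include some too low to be tested. These are Tex38, Rhox3c, Rhox2f, Rhox4g and Rhox3h toward LLC1 and Tex16 toward MLE12. The Rhox and Xlr3 genes had the largest differences toward LLC1 among the tested members, and Mageh1, Sycp1 and Tex15 the largest toward MLE12.

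**Figure D1:**
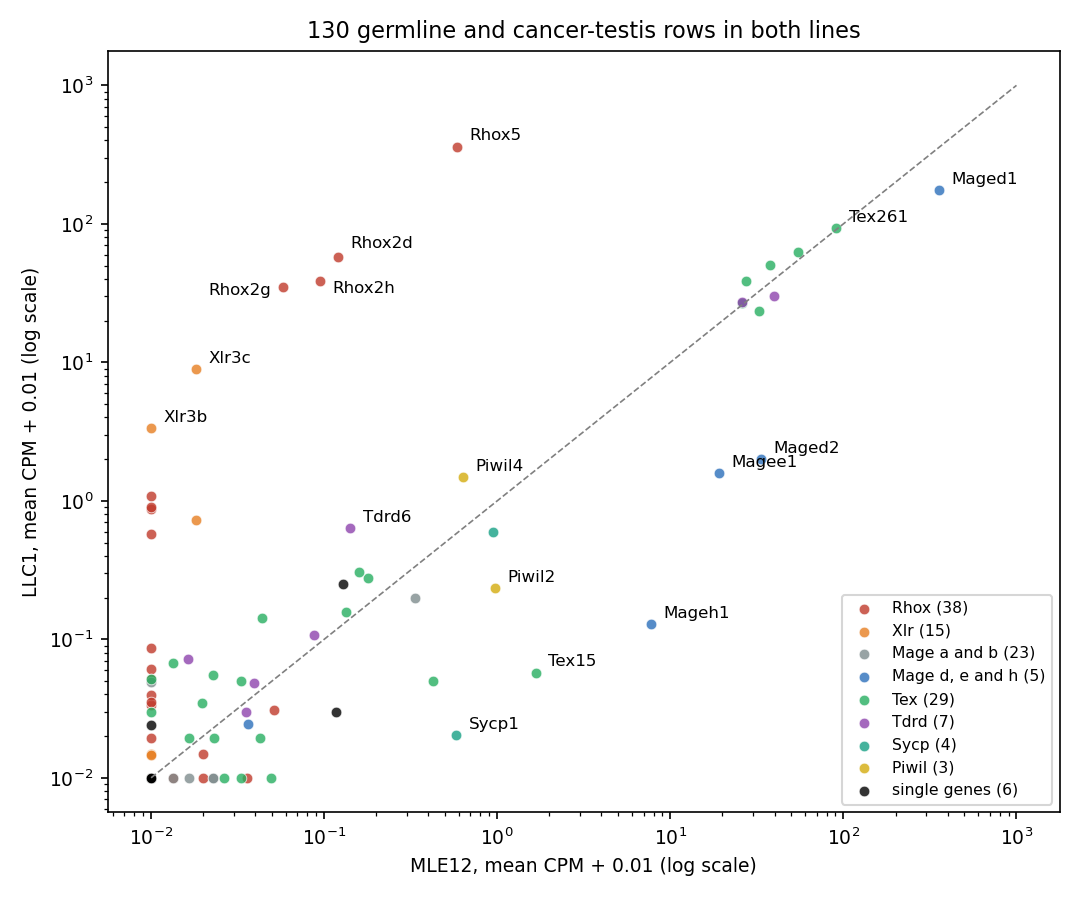
Mean level of each of the 130 members in MLE12 (x axis) and LLC1 (y axis), in CPM plus 0.01 on log scales, coloured by family, with the number of rows of each family in the key; the dashed line marks equal levels. Rhox5, Rhox2d, Rhox2g, Rhox2h and the Xlr3 genes lie far above the line, Maged2, Magee1, Mageh1, Tex15 and Sycp1 far below it, and most members crowd the lower left corner.

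Rhox5, also known as Pem, is the founding member of the Rhox cluster, a homeobox factor of Sertoli cells and epididymis that is also known from placenta and from mouse tumour lines. It was the most abundant Rhox gene. Rhox5 stood at 375, 358, 375 and 338 CPM in the LLC1 libraries and at 0.686, 0.305, 0.558 and 0.76 CPM in the MLE12 libraries. The groups were far apart, and the LLC1 libraries lay within a narrow band. The means were 362 ± 17.4 and 0.577 ± 0.2 CPM (SD, n = 4 per line), a 626-fold difference, with a log2 fold change of 9.32 ± 0.12 (SE). By level, Rhox5 ranked 344 in LLC1 and 15016 in MLE12 among all 43346 rows, tested or not.

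The trace of Rhox5 in MLE12 was small for so abundant a gene. It amounted to 0.160% of the LLC1 level, the lowest such share among the 2200 genes of at least 100 CPM in LLC1. For comparison, 34 genes of at least 100 CPM in LLC1 stood below 1% of that level in MLE12, with a median share of 0.253%, 0.258%, 0.284% and 0.387% in MLE12 libraries 1 to 4. That median is held low by the 1% limit on which the 34 genes were picked, and only its order among libraries is read here. MLE12 library 4 had the highest trace of Rhox5 and also the highest median. The other libraries did not keep the same order. Library 1 had the lowest median, but its 0.686 CPM of Rhox5 lay above libraries 2 and 3 (0.305 and 0.558 CPM). Rhox5 is itself among the 34 genes. Whether this trace was transcribed in MLE12 cells was not tested.

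The Rhox2 genes are tandem copies of a homeobox gene of the same cluster. Of the 8 copies, 3 carried nearly all counts in LLC1: Rhox2d, Rhox2g and Rhox2h together held 97.9% of the 26516 Rhox2 counts. Rhox2d stood at 60.2, 54.8, 64.2 and 53.2 CPM in LLC1 and at 0.0906, 0.0928, 0.0381 and 0.22 CPM in MLE12. Rhox2g reached 38.5, 29.9, 38.3 and 33.1 CPM in LLC1 against 0.0129, 0.0663, 0.0127 and 0.1 CPM. Rhox2h reached 39.5, 35.2, 41 and 39.5 CPM against 0.103, 0.0133, 0.0634 and 0.16 CPM. Each of the 3 copies was high in all LLC1 libraries and no library of either line came near the other line. Their means differed 526-fold, 729-fold and 456-fold, with log2 fold changes of 9.16 ± 0.15, 9.61 ± 0.20 and 8.92 ± 0.17.

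The other Rhox2 copies were much lower in LLC1 and had no count in MLE12. Rhox2c had 1.29, 0.617, 1.36 and 1.03 CPM in the LLC1 libraries, at least 92.7-fold above the level that 3 counts over the 4 MLE12 libraries would give, on plain library totals. Rhox2a (mean 0.867 CPM) and Rhox2e (0.89 CPM) were at least 76.3-fold and 78.9-fold higher in LLC1 on the same basis. Rhox2b and Rhox2f had 5 counts each in LLC1. All 8 copies summed to 135 ± 10.8 CPM in LLC1 and 0.243 ± 0.162 CPM in MLE12. That sum does not depend on how reads were shared among the copies, provided they stayed within the Rhox2 genes.

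How far reads can be placed on a single copy was read from the transcripts. Of all 100-base stretches of its annotated transcripts, 81.9% in Rhox2d, 82.3% in Rhox2g and 89.3% in Rhox2h occur in no other gene's transcripts. The share is 47.7% in Rhox2c, 33.6% in Rhox2a and 9.09% in Rhox2e, the copies with 209, 172 and 178 LLC1 counts. Rhox2f, with 5 counts, has 67.6% and Rhox2b 36.9%. The 3 abundant copies are thus also the ones with the most sequence of their own, while Rhox2f is low with more of its own sequence than Rhox2c. Rhox5 has no stretch in common with another gene (100% unique). How reads with several matches were counted is not given in the sources used here, and its part in the difference between copies was not tested.

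**Figure D2:**
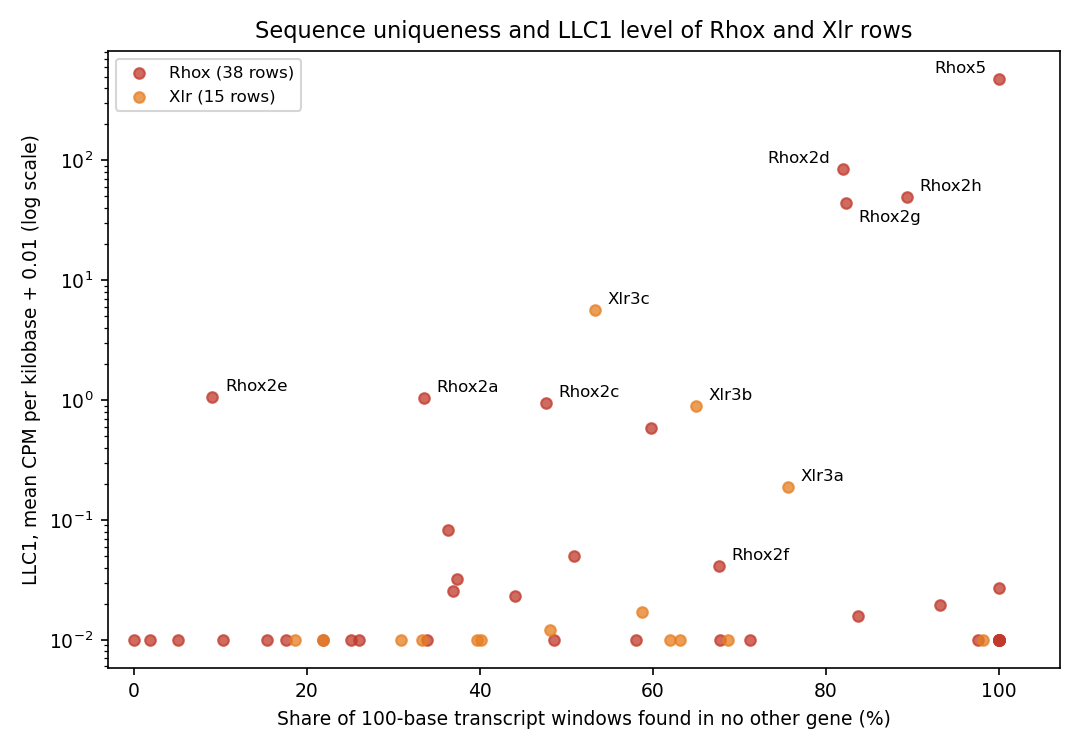
Share of 100-base transcript windows found in no other gene (x axis, %) against the mean LLC1 level (y axis, CPM per kilobase plus 0.01, log scale) for 38 Rhox and 15 Xlr rows, 1 point per row. Rhox5, Rhox2d, Rhox2g and Rhox2h sit at the upper right, Rhox2a, Rhox2c and Rhox2e near 1 CPM per kilobase at lower uniqueness, and rows at 0 counts lie along the bottom at every uniqueness.

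The 250 bases before the annotated start are shown for Rhox5 and for 4 Rhox2 copies, since these windows show how alike the promoters of an abundant and a scarce copy are. They are from RefSeq (GRCm38.p6), written 5′ to 3′ on the strand of the gene, with each CG dinucleotide, the target of DNA methylation, in capitals.
Rhox5, chrX:37754358-37754607, plus strand: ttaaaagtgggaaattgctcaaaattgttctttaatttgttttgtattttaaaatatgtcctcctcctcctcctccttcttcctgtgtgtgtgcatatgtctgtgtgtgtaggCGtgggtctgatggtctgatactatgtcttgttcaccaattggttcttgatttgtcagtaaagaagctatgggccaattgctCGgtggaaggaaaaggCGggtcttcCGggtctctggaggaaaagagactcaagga
Rhox2d, chrX:37493160-37493409, plus strand: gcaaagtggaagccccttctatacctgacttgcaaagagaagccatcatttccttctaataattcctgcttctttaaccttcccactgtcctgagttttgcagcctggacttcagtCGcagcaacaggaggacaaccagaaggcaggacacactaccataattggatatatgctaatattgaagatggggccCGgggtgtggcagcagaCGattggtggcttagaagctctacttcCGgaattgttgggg
Rhox2g, chrX:37643471-37643720, minus strand: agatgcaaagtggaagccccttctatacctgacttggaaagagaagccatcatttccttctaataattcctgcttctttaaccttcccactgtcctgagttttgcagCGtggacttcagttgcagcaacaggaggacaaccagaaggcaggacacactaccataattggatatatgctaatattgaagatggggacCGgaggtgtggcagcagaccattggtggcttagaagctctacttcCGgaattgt
Rhox2h, chrX:37673278-37673527, minus strand: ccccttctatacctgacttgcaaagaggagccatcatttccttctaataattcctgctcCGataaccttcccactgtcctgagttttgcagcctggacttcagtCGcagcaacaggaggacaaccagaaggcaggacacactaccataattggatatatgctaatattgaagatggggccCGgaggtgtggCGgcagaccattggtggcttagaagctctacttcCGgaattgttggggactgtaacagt
Rhox2a, chrX:37244742-37244991, plus strand: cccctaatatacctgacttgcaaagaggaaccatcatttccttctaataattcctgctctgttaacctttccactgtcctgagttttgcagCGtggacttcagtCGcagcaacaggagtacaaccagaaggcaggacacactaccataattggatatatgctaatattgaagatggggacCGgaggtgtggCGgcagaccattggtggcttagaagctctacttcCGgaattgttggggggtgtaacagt
The number of CG dinucleotides in these windows is 4 in Rhox5, 4 in Rhox2d, 3 in Rhox2g, 5 in Rhox2h and 5 in Rhox2a. The 300-base RefSeq windows reach 50 bases past the start. Over them, Rhox2h and Rhox2a are 94.4% identical, while their LLC1 levels per length were 49.3 and 1.03 CPM per kilobase. Of their 100-base transcript stretches, 89.3% and 33.6% occur in no other gene. The part of reads with several matches in these 2 levels was not tested. Rhox2d and Rhox2g, which lie on opposite strands, are also 94.4% identical and stood at 84.8 and 43.9 CPM per kilobase. Over the 7 Rhox2 copies with a window, identity between pairs ran from 74.9% to 99.7%. The RefSeq start of Rhox5 lies 50234 bases before the start of its row in the deposited table, and which start was used was not tested.

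The rest of the cluster was low or at 0. Rhox3g, a related homeobox copy, had 0.716, 0.468, 0.599 and 0.476 CPM in LLC1 and no count in MLE12, at least 48.8-fold higher in LLC1. It was the only Rhox3 copy that could be tested. The 9 Rhox3 rows together had 133 counts in LLC1 and the 8 Rhox4 rows 16, with no count of either in MLE12. Rhox8, a Sertoli cell gene, had 4 counts in LLC1 and 10 in MLE12. Rhox9 and Rhox12 had no count in LLC1 and 2 and 8 in MLE12. In all, 18 of 38 Rhox rows were at 0 in every library, and 8 entered the fit. All of the 8 but Rhox5 passed the filter through LLC1 alone. Rhox2a, Rhox2c, Rhox2e and Rhox3g had no count in MLE12, and Rhox2d, Rhox2g and Rhox2h had 28, 12 and 22 there. The 8 rows were called higher in LLC1, a direction that their selection and, for all but Rhox5, the filter had fixed. Over the 38 rows the median unique share was 54.5%. Rows at 0 ran from Rhox3a2 (0% unique) and Rhox4a2 (1.87%) to Rhox10, Rhox11 and Rhox13 (100%). As the handling of reads with several matches is not known, 0 counts on the less unique rows do not show that these were silent.

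The cluster spans 1092.2 kb of the X chromosome between the start of Rhox1 (X:37213804) and the end of Rhox7-ps (X:38306028) on mm10. High levels were found at Rhox2d, Rhox2g, Rhox2h and Rhox5, in the middle of it, with Rhox rows at 0 between them and on both sides. Of the other genes within the cluster, Zbtb33, which encodes the methyl-CpG binding protein Kaiso, stood at 20.8, 23.1, 20.8 and 20.5 CPM in LLC1 and at 35.4, 36.1, 39.3 and 41.7 CPM in MLE12. It was thus higher in MLE12 in all libraries. Dppa3-ps, a pseudogene row that overlaps Rhox3g, had 46 counts in LLC1 and none in MLE12 and was not tested; it was picked out after its values were seen. Outside the cluster, 22 of 36 rows within 500 kb were tested, of which 4 were called higher in LLC1 and 8 in MLE12. The shares in these directions were 40.7% and 40.9% over all genes tested, and 25.8% and 54.5% over the X-linked ones. The most shifted of the called neighbours were Gm7598 toward LLC1 (log2 fold change 4.46 ± 0.31, mean 1.44 against 0.0618 CPM) and Ube2a, a ubiquitin-conjugating enzyme, toward MLE12 (−0.96 ± 0.07). Past the 2-fold minimum were 2 of the 22, both toward LLC1, beside 16.7% of all genes tested toward LLC1 and 16.9% toward MLE12.

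**Figure D3:**
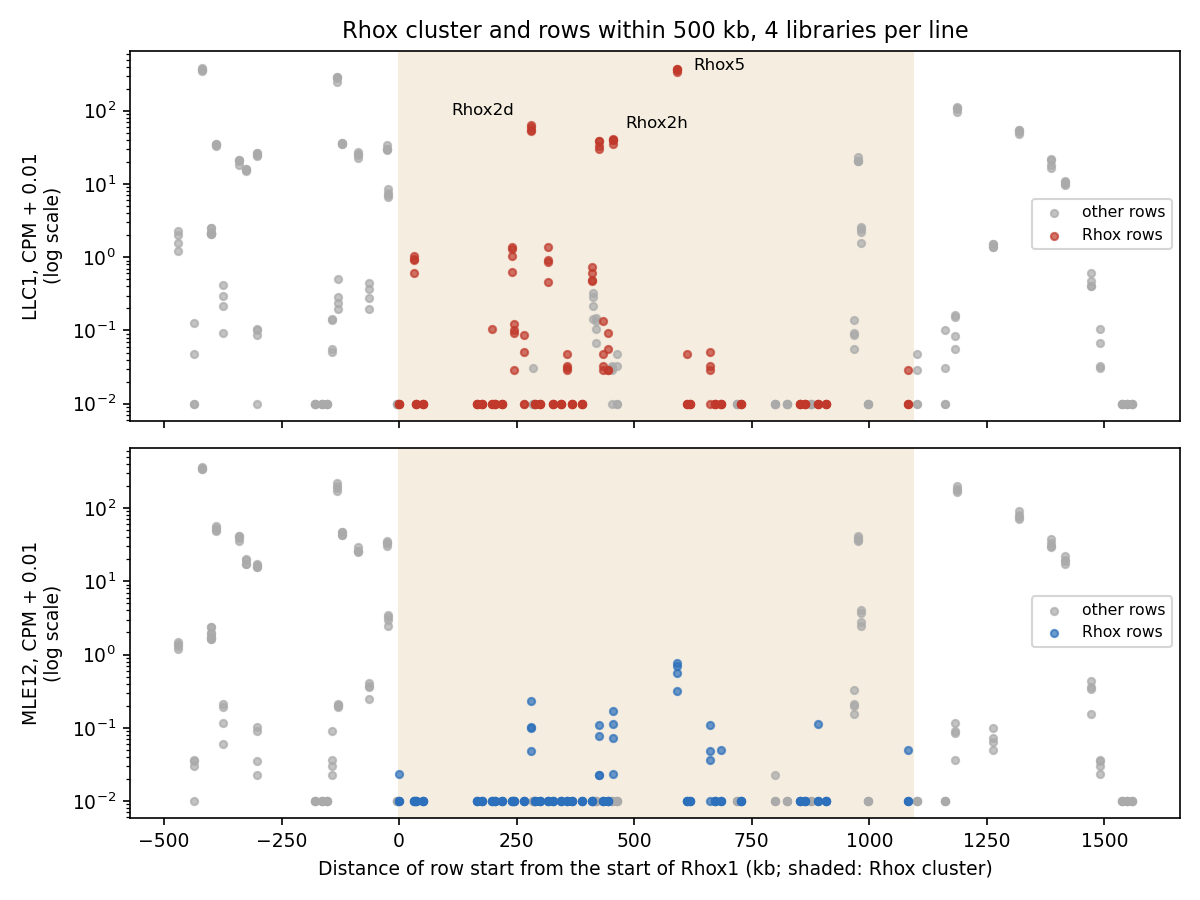
Level of every row in the Rhox cluster (coloured points) and of the other rows in the cluster and within 500 kb of it (grey), in CPM plus 0.01 on a log scale, by distance from the start of Rhox1 in kb, with 4 libraries per line as points (LLC1 above, MLE12 below). Rhox5, Rhox2d, Rhox2g and Rhox2h are high in LLC1 and low in MLE12, whereas the fold differences of the tested grey rows are smaller, the largest being Gm7598 at 1.44 against 0.0618 CPM.

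On the X chromosome as a whole, 25.8% of the 666 genes tested were called higher in LLC1 and 54.5% higher in MLE12, with a median log2 fold change of −0.38. The 11 X-linked members called higher in LLC1 were the 8 Rhox and 3 Xlr3 genes, and the 4 called higher in MLE12 were Maged1, Maged2, Magee1 and Mageh1. The Mage genes thus lay in the direction of most X-linked genes and the Rhox and Xlr3 genes in the opposite direction.

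The Xlr3 genes, another set of X-linked copies, showed the same direction as Rhox at lower levels. Xlr3c had 8.04, 8.98, 9.12 and 9.67 CPM in LLC1 and 2 counts in all of MLE12. Their count ratio, on plain library totals, was 1182 with a 95% interval of 327 to 9768 that covers counting error only. Xlr3b had 2.7, 3.52, 3.49 and 3.65 CPM in LLC1 and no count in MLE12, at least 295-fold higher. Xlr3a was lower, at 0.971, 0.73, 0.455 and 0.704 CPM in LLC1 against 2 counts in MLE12, a count ratio of 93.1 (25.3 to 777). All LLC1 libraries lay above all MLE12 libraries for each of the 3 copies. Each copy passed the filter on low counts through LLC1 alone, which fixed that direction.

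The summed level of the Xlr3 copies was 13.0 ± 0.957 CPM in LLC1 against 0.0165 ± 0.0199 in MLE12. Of the 2583 counts in LLC1, 68.8% were on Xlr3c, 25.8% on Xlr3b and 5.42% on Xlr3a. The order did not follow uniqueness: the share of 100-base stretches found in no other gene is 53.3% in Xlr3c, 64.9% in Xlr3b and 75.6% in Xlr3a. Xlr4 and Xlr5 genes lie next to the Xlr3 copies on the X chromosome, and their 10 rows had 1 count in all, on Xlr4c. Their unique share is 40.1% to 68.7% in the Xlr4 rows and 18.7% to 39.7% in the Xlr5 rows, and the part of reads with several matches in these counts was not tested.

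**Figure D4:**
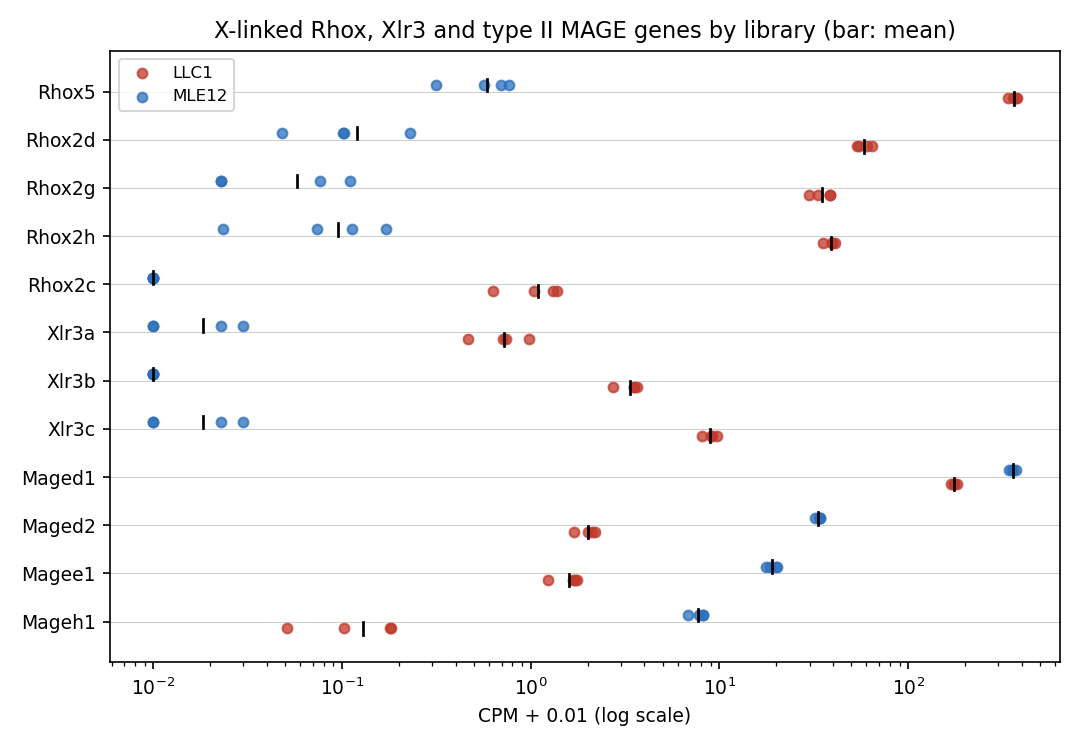
Level of 12 X-linked members in each library (points, CPM plus 0.01 on a log scale, 4 per line; points at the left edge are at 0), with the mean as a bar. Rhox and Xlr3 genes are higher in LLC1 and at or below 0.76 CPM in MLE12. Among them Rhox2c and Xlr3a reach only 1.36 and 0.971 CPM in LLC1. The 4 Mage genes are higher in MLE12, and the lines do not overlap for any of the 12 genes.

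The MAGE genes fell into 2 kinds. Mage a and b genes are type I genes, the classic cancer-testis kind, silent outside the germline, and Mage d, e and h genes are type II genes, expressed in many tissues, whose proteins pair with ubiquitin ligases. Type I genes were almost without reads: 22 of 23 had at most 10 counts in the 8 libraries, and 17 had none. The exception was Mageb3, at 0.116, 0.112, 0.434 and 0.0951 CPM in LLC1 and 0.259, 0.464, 0.203 and 0.38 CPM in MLE12, with overlapping groups and no call. The Mageb3 row overlaps that of Ctdspl2, a gene with 26870 counts, although their annotated transcripts have no 100-base stretch in common. The part of Ctdspl2 in the Mageb3 counts was not tested.

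Of the 5 type II genes, 3 reached 1 CPM in both lines, Mageh1 did so in MLE12 alone and Magee2 in neither, and the 4 genes besides Magee2 were higher in MLE12. Maged1, which encodes a protein that binds the p75 neurotrophin receptor and is also called NRAGE, was the most abundant MAGE gene. The LLC1 libraries had 169, 175, 182 and 176 CPM and those of MLE12 358, 357, 371 and 342 CPM, a 2.04-fold difference (log2 fold change −1.03 ± 0.04). Its groups did not overlap, and the difference did not pass the test against 2-fold. Maged2, whose human gene is mutated in a transient form of antenatal Bartter syndrome, had 2.01, 1.68, 2.11 and 2.19 CPM in LLC1 and 33.9, 33.5, 34.1 and 32.2 CPM in MLE12, 16.7-fold higher in MLE12 (−4.07 ± 0.08). No library of either line came near the other line.

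Magee1, whose protein binds dystrobrevin, had 1.23, 1.7, 1.76 and 1.66 CPM in LLC1 and 17.7, 18.5, 20.1 and 19.9 CPM in MLE12, 12.0-fold higher in MLE12 (−3.57 ± 0.10). Mageh1 differed the most, with 0.0925, 0.168, 0.0413 and 0.171 CPM in LLC1 and 8.15, 7.77, 6.84 and 8.14 CPM in MLE12 (−5.97 ± 0.21, 65.3-fold). In LLC1 it rested on 24 counts in all. Magee2, the remaining type II member, had 3 and 6 counts. All 3 of Maged2, Magee1 and Mageh1 passed the test against 2-fold. Transcripts of the 4 called genes share almost no 100-base stretch with other genes, 4 of the 5 type II members being fully unique.

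MAGE-fold genes with other names went the other way. Ndn, the imprinted gene of necdin, had 11.6, 10.7, 11.6 and 12 CPM in LLC1 against 0.272, 0.199, 0.228 and 0.56 CPM in MLE12 (log2 fold change 5.28 ± 0.18). Ndnl2, which encodes a subunit of the SMC5/6 complex, was at 20.0 ± 0.93 and 12.6 ± 0.83 CPM. Both tested genes of this list were thus called higher in LLC1, as were 40.7% of all genes tested. Magel2 was too low to be tested.

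The promoter window of Mageh1 is shown as that of the type II gene with the largest difference, with CG dinucleotides in capitals (RefSeq, GRCm38.p6).
Mageh1, chrX:153037564-153037813, minus strand: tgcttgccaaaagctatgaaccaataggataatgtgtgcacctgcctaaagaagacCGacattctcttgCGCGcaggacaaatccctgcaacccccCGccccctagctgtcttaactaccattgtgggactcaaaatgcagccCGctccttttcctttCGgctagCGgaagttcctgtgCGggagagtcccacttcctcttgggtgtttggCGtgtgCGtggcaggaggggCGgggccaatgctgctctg
It holds 11 CG dinucleotides, against 3 to 5 in the Rhox windows above. Over the 300-base windows, the type II MAGE genes had a median of 14, the Mage a and b genes 2, the Rhox2 copies 8, and all 32851 RefSeq windows 7. Of the 130 members, 94 had a window.

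The Sycp genes encode the synaptonemal complex, the zipper between paired chromosomes in meiosis. Sycp1, its transverse filament, had 0.53, 0.53, 0.558 and 0.66 CPM in MLE12 and only 2 counts, both in a single library, in LLC1, a count ratio of 59.4 (95% interval 16.2 to 495). Sycp3, an axial element protein, had 0.832, 0.524, 0.393 and 0.609 CPM in LLC1 and 0.996, 0.928, 1.03 and 0.8 CPM in MLE12, with overlapping groups (−0.68 ± 0.25). Its row overlaps Chpt1, and 66.0% of its 100-base transcript stretches occur in no other gene; in the shared stretches, reads of the 2 genes cannot be told apart without strand. Sycp2, the partner of SYCP3 in the axial element, was at 0 in all 8 libraries. No line thus held all 3 parts.

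Of the piRNA effectors, Piwil4 was higher in LLC1 and Piwil2 higher in MLE12. Piwil4, the nuclear Piwi protein of fetal male germ cells, had 1.5, 1.5, 1.49 and 1.39 CPM in LLC1 and 0.608, 0.663, 0.647 and 0.58 CPM in MLE12 (log2 fold change 1.23 ± 0.19). Piwil2, the cytoplasmic Piwi protein of the same cells, had 0.231, 0.281, 0.124 and 0.266 CPM in LLC1 and 1.44, 0.848, 0.977 and 0.58 CPM in MLE12 (−2.09 ± 0.34). The lines did not overlap for either gene. Piwil1, the Piwi protein of later spermatogenesis, was at 0 throughout.

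Tudor domain proteins bind methylated arginines, and several scaffold the piRNA granule. Tdrd6, a component of the chromatoid body of spermatids, had 0.855, 0.636, 0.351 and 0.647 CPM in LLC1 and 0.181, 0.0663, 0.178 and 0.1 CPM in MLE12 (2.20 ± 0.39), with all LLC1 libraries higher. Tdrd1, a partner of Piwi proteins, had 12 and 2 counts in the lines. Tdrd5, Tdrd9 and Tdrd12 had 4 to 20 counts per line, none tested. Tdrd7 and Tdrd3, which are active in many tissues, were the expressed members: Tdrd7 averaged 30.0 ± 1.92 and 39.7 ± 0.601 CPM (−0.40 ± 0.05), and Tdrd3 averaged 27.4 ± 2.55 and 26 ± 0.555 CPM with no call.

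The single genes that define germ cells were at or near 0. Dazl, an RNA-binding protein that licenses germ cells, Stra8, the retinoic acid target that starts meiosis, and Mael, a piRNA pathway protein, were at 0 in all 8 libraries. Dppa3, also called Stella, had 3 counts in LLC1 and none in MLE12. Ddx4, the Vasa helicase of germ cells, had 4 counts in LLC1 and 28 in MLE12. Taf7l, a germ cell relative of a general transcription factor subunit, averaged 0.24 ± 0.0684 and 0.119 ± 0.106 CPM with overlapping groups. Neither line thus expressed the set as a whole.

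Tex genes split into broadly active and germline ones. Tex261 was the most abundant, with means of 93.2 ± 5.15 CPM in LLC1 against 90.8 ± 3.37 in MLE12 and overlapping groups. Tex10, a subunit of a ribosome maturation complex, averaged 62.8 and 54.4 CPM, Tex2, a lipid transfer protein of the endoplasmic reticulum, 50.3 and 37.7 CPM, and Tex264, a receptor for autophagy of that organelle, 38.9 and 27.5 CPM. These 3 were called higher in LLC1 with differences of less than 1.5-fold. Tex30 averaged 23.4 and 32.5 CPM and was called higher in MLE12, and Tex9, at 26.6 and 26.1 CPM, was not called.

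Germline Tex genes were low. Tex15, which acts in meiotic recombination and in piRNA-directed DNA methylation, had 0, 0.112, 0.0207 and 0.0571 CPM in LLC1 and 1.25, 1.56, 1.93 and 1.9 CPM in MLE12 (log2 fold change −4.98 ± 0.40). Every MLE12 library stood well above every LLC1 library. Tex26 averaged 0.0397 and 0.414 CPM (−3.27 ± 0.46). Tex14, a protein of the bridges between germ cells, had 52 and 51 counts and Tex40 59 and 41, and neither was called. Tex101, a surface protein of male germ cells, had 0 and 6 counts, Tex19.1, a transposon control gene, 0 and 4, and Tex11, an X-linked meiosis gene, 4 and 0.

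**Figure D5:**
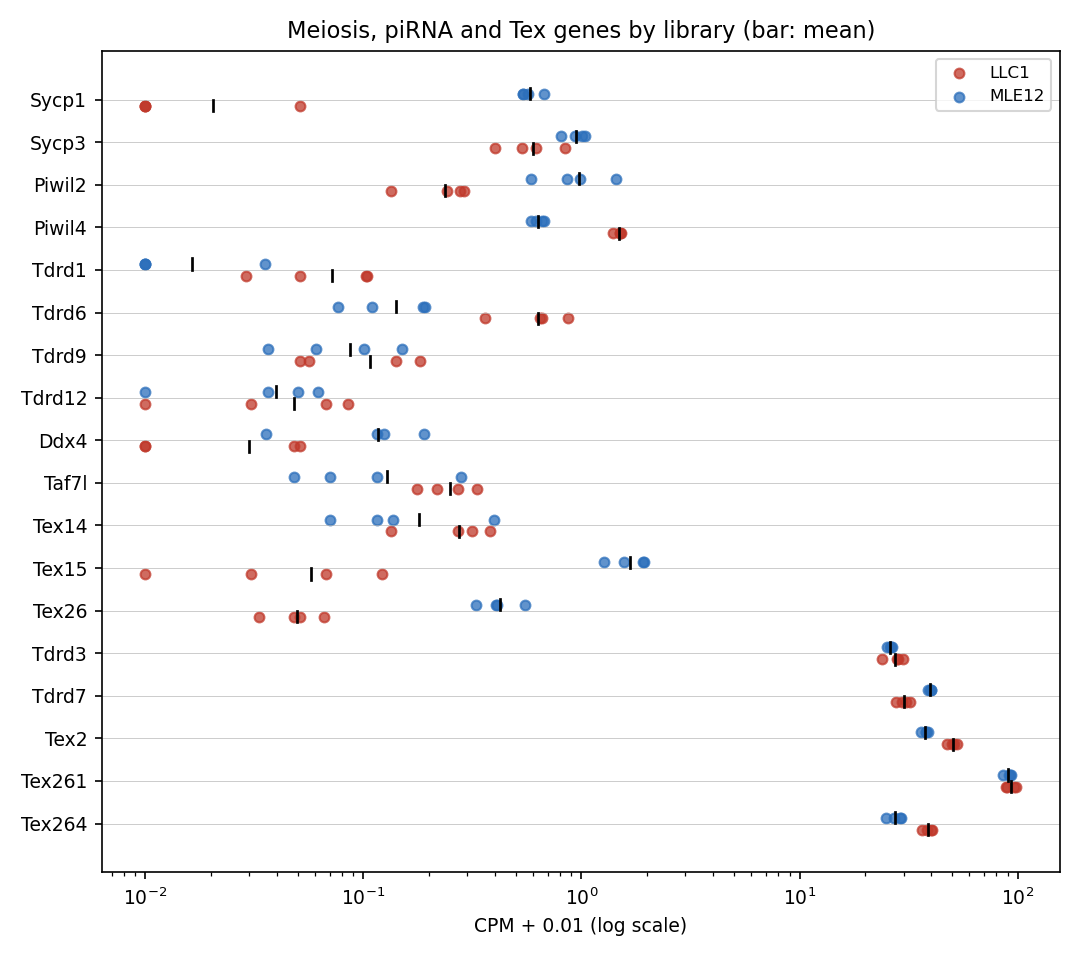
Level of 18 autosomal and X-linked meiosis, piRNA and Tex members in each library (points, CPM plus 0.01 on a log scale, 4 per line, LLC1 and MLE12 by colour), with the mean as a bar. Sycp1, Tex15, Tex26 and Piwil2 are higher in MLE12 and Piwil4 and Tdrd6 in LLC1 with no overlap, and the broadly active genes Tdrd3, Tdrd7, Tex2, Tex261 and Tex264 stand above 20 CPM in both lines.

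Promoters of germline genes known to be held silent by the complex of MGA, MAX and E2F6 often hold the E-box CACGTG or the E2F-like motif TCCCGC. Both were searched on both strands of the 300-base windows; neighbouring matches of the 2 motifs can share 1 end base. CACGTG was present in 7.15% of all windows and in 17.0% of the 94 member windows, and TCCCGC in 20.0% and 20.2%. Of the 16 member windows with CACGTG, 5 belong to Rhox4 copies whose windows are 78.0% to 94.1% identical, so they are not separate cases. Both motifs together were in 1.99% of all windows and in 5 member windows, those of Ddx4, Mael, Sycp1, Sycp3 and Tex12. The 8 members that reached 1 CPM in LLC1 alone had neither motif. The windows of Mael, at 0 in both lines, and Sycp1, counted in MLE12, are shown with these motifs in capitals in the 250 bases before the start.
Mael, chr1:166238745-166238994, minus strand: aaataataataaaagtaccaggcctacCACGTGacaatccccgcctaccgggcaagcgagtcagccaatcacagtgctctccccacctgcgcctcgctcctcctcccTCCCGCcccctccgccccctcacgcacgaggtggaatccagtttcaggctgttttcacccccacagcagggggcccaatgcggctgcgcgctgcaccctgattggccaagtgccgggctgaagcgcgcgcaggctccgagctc
Sycp1, chr3:102936101-102936350, minus strand: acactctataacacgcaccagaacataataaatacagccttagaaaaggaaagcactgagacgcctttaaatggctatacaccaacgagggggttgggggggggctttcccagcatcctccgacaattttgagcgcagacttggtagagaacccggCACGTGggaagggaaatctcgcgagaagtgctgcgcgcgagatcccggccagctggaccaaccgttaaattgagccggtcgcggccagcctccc
A match is a description of the letters and shows no binding.

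Germline genes with other names included some higher in each line. Of 50 such genes found in the table, 19 were tested, with 8 called toward LLC1, 6 toward MLE12 and 5 without a call, where 40.7% and 40.9% of all genes tested were called in these directions. Spo11, the nuclease that makes meiotic breaks, had 0.901, 1.5, 0.723 and 1.16 CPM in LLC1 and no count in MLE12, at least 95.3-fold higher in LLC1. Tdrkh, a mitochondrial Tudor protein of piRNA trimming, averaged 0.437 ± 0.16 and 32.2 ± 2.1 CPM in LLC1 and MLE12 (log2 fold change −6.20 ± 0.13).

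Genes that hold germline promoters silent were expressed in both lines. All 22 listed repressors were tested, and 10 were called higher in LLC1 and 9 in MLE12, with 3 left uncalled, beside the 40.7% and 40.9% of all genes tested. E2f6 averaged 53.8 ± 2 and 13.0 ± 0.65 CPM in the lines (2.05 ± 0.05), and its partner Tfdp1 155 ± 9.6 and 488 ± 14 CPM (−1.66 ± 0.05). Among 11 DNA methylation genes, 7 were called higher in LLC1 and 4 in MLE12, beside the same 40.7% and 40.9% of all genes tested. Tet1 and Tet2 are among the 7, and Tet3 is among the 4. Dnmt3l, the cofactor of germline methylation, had 2.31, 2.84, 3.45 and 2.55 CPM in LLC1 and 4 counts, all in a single library, in MLE12, while Dnmt3b averaged 6.72 ± 0.26 and 16.4 ± 0.65 CPM (−1.29 ± 0.07). Methylation itself was not measured.

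Markers of the cells that normally express these families were counted beside them. None of 10 spermatogenic markers and none of 8 oocyte markers passed the filter on low counts. Summed, the spermatogenic markers came to 0.412 to 0.723 CPM in LLC1 and 0.212 to 0.323 CPM in MLE12, with Pgk2 and Spaca1 at 0 in all libraries. The oocyte markers came to 0 to 0.186 CPM in LLC1 and 0.127 to 0.4 CPM in MLE12, with Zp2, Oosp1 and Zar1 at 0. Both germ cell lists were thus near the limit of detection in each line, and their part in the levels of the members was not tested.

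Of the Sertoli and Leydig cell markers, 4 of 8 were tested, 2 called higher in LLC1 and 1 in MLE12, with Fshr and Hsd3b6 at 0. The shares called in these directions over all genes tested, 40.7% and 40.9%, stand beside each list of this paragraph. Insl3, a Leydig cell hormone, was the most shifted toward LLC1 of those with at least 1 CPM (3.04 ± 0.31 against 0.582 ± 0.13 CPM). Among 10 trophoblast markers, 3 of the 4 tested were called higher in LLC1, with Tfap2c at 2.37 ± 0.38 CPM against 2 counts in MLE12, and Eomes was higher in MLE12 (7.2 ± 0.45 against 0.228 ± 0.1 CPM). Of 10 pluripotent cell markers, 2 were tested: Dppa4 was higher in LLC1 (1.16 ± 0.33 against 0.00331 ± 0.0066 CPM) and Nanog in MLE12 (1.41 ± 0.2 against 0.0417 ± 0.03 CPM). The part of these genes in the levels of the Rhox and Xlr3 genes was not tested.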

How the data were processed

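Messenger RNA of LLC1 and MLE12 was measured by poly-A selection, random priming and paired-end reads of 100 nt from fragments of 250 to 300 bp, per the labels' protocols, which name no step that marks strand. The authors deposited raw counts per gene, with gene name, position and length. The submitters' processing notes name the build mm10 and the tools featureCounts, TopHat2, CASAVA and edgeR. Versions, the strand setting and the handling of reads with several matches are not given in the sources used here. In all 8 libraries more genes had a count of 2 than a count of 1 (1.14 to 1.25 times as many), so counting intervals and floors, which cover counting error only, may be too narrow.

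The deposited counts were analysed in R 4.3.3 with edgeR 4.0.16: filterByExpr by cell line left 18546 genes, libraries were scaled by TMM, and glmQLFit (robust) with glmQLFTest, or glmTreat against 2-fold, gave p-values adjusted by Benjamini-Hochberg over all genes tested. Nothing in the labels says that libraries of a line were separate cultures, so the p-values rest on a spread between samples that may be technical. Checked by chi-square, every pair of libraries of a line differed beyond sampling noise. On simulated counts for these 18546 genes, the fit called 50 of 50 genes at each of 1.5, 2, 4 and 8-fold and 12 of 18346 unchanged genes. The changed genes were drawn only from those above 1 CPM in MLE12, and all genes had the same spread. Far fewer genes were changed than the 81.6% called in the data. The recovery thus does not cover the 109 members under 1 CPM in both lines. DESeq2 1.42.0, limma-voom (limma 3.58.1), other scalings, other filters, a replicate block and the removal of each library were alternatives.

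Members and lists were chosen with earlier results of these data known. By rule the text names, per family and direction, up to 6 called members with the largest change, at least 1 CPM in the higher line and at least 2-fold, the most abundant member, and 22 members fixed by name; from other lists, the called gene with the largest change per direction and at least 1 CPM. Every other gene named, such as Rhox2a, Rhox2e, Rhox3g, Xlr3a, Tdrd6, Tex2, Tex10, Tex26, Tex264 and the marker genes given for the 2 lines, was chosen after its values were seen. Promoter windows (250 bases before to 50 after the start) were RefSeq's, GRCm38.p6, matched by symbol for 94 of 130 members. The last 50 bases of 74 of the 94 windows occur in a GENCODE M21 transcript of the gene. Stretches of 100 bases were compared between GENCODE M21 transcripts on both strands, and promoter identity was computed with edlib 1.3.9.post1 in Python 3.11.15. Proteins of the members were not used here.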

Additional observations from a re-analysis of the deposited data

Results flagged for a closer look

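In 5 of the 64 sets of 4 libraries checked, 1 library stood apart from the other 3 of its line by more than Dixon's 95% critical value. Sets at 0 in every library are among the 64 and could not be flagged. For normally distributed values chance alone flags about 1 set in 20, a rate that does not hold for sets of a few counts. Xlr3b had 2.7 CPM in LLC1 library 1, against 3.49 to 3.65 CPM in the others. Mageb3 had 0.434 CPM in LLC1 library 3, against 0.0951 to 0.116 CPM. Piwil4 had 1.39 CPM in LLC1 library 4, against 1.49 to 1.5 CPM. Both Sycp1 counts of LLC1 were in library 3 (0.0413 CPM), and both Tdrd1 counts of MLE12 were in library 3 (0.0254 CPM), where the other libraries were at 0.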

How the results depend on the processing

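Member counts moved with the filter on low counts. The share of all genes called under each filter is not given here, so nothing about the members is read from these counts. Without a filter, 26 members were called higher in LLC1, and 13 germline genes outside the families; with at least 1 CPM in 4 libraries, which leaves fewer genes to test, 10 members were called higher in LLC1 and 7 in MLE12, 6 and 4 passed 2-fold, and 5 germline genes outside the families were higher in LLC1. With library totals alone, 6 repressors were called higher in LLC1; the cause was not tested. Tex261, not called, changed sign with library totals (-0.060) and with no filter (-0.0042); the cause was not tested. Leaving out each library in turn gave 16 to 19 members called higher in LLC1 and 11 to 11 in MLE12, with 12 and 7 past 2-fold each time. Over all genes, 7387 to 7744 were then called higher in LLC1 and 7461 to 7678 in MLE12. Without LLC1 library 3, Mageb3 was called higher in MLE12 (−1.57) and Sycp3 lost its call (−0.54, edgeR adjusted p = 0.0529). Without MLE12 library 1, Tex14 (1.35) and Taf7l (1.78) were called higher in LLC1, and limma-voom also called Taf7l (1.27). For the 21 named members that could be tested, 322 recomputed values kept direction and call. The same replicate numbers in the lines did not pair the libraries: deviations of same-numbered libraries correlated at −0.065 to 0.108, and 2 of 4 LLC1 libraries correlated best with their own number. With the replicate number as a block, 16 and 11 members were called and 12 and 7 passed 2-fold. Depth limits the members at a few counts: a library with no count may hold a level of up to 0.0381 to 0.0693 CPM, so such members cannot be called absent.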
